A study of Homo sapiens with 9 samples.

Results

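The comparison sets 4 libraries of lncRNA-OIS1 knockdown beside 1 library of BRD7 knockdown, 5 of the 9 libraries in the series, all in BJ cells with active RASG12V. BJ cells are human foreskin fibroblasts, here immortalised with hTERT, the catalytic subunit of telomerase. Each lncRNA-OIS1 library carries another short hairpin RNA, named 32-2, 32-3, 32-8 and 32-9 in the labels, so each hairpin was measured once. The hairpin against BRD7 is not named. The labels give 14 days of 4-OHT (4-hydroxytamoxifen) for all 9 libraries, which includes the control with a non-targeting hairpin, although the series' design text calls control cells untreated. The libraries used beside the comparison were p53 knockdown with RASG12V (1 library), senescent cells with RASG12V and a non-targeting hairpin (2 libraries, each with its own hairpin) and that control (1 library). Poly(A) RNA was sequenced, and 12481 of the 13745 genes in the table, those whose highest value over the 9 libraries reached 40, were compared. The question is where loss of the RNA and loss of BRD7 leave RAS-expressing fibroblasts with different gene expression.

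Oncogenic RAS drives normal fibroblasts into senescence, a lasting arrest of division with a secretory programme of cytokines and proteases. BRD7 is a bromodomain protein, a subunit of the PBAF form of the SWI/SNF chromatin-remodelling complex and a cofactor of p53 that RAS-induced senescence needs in human fibroblasts. LncRNA-OIS1 is a long non-coding RNA known from the same kind of cell for its part in this arrest and for its effect on the neighbouring gene DPP4, which encodes a cell-surface peptidase.

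Levels are the authors' normalised signal, a value per gene with a floor of 20, with no count or depth behind it. All 9 libraries hold the same set of values, with a median of 340.1 and a highest value of 211606.6, so levels are comparable between libraries for 1 gene but not between genes of different length. The 12 fibroblast markers were all in the table and above the floor in all 9 libraries, and their summed level was 221979.3 to 268463.2 in the lncRNA-OIS1 libraries and 264345.0 in the BRD7 library. Of the defining markers of other cells, 3 of 7 epithelial, 3 of 7 leukocyte and 1 of 6 endothelial markers were in the table. The epithelial sum was 801.4 to 2105.3 in the lncRNA-OIS1 libraries and 1746.3 in the BRD7 library, and the leukocyte sum was 65.1 to 191.9 in the lncRNA-OIS1 libraries and 170.4 in the BRD7 library. The endothelial marker TIE1 had 50.8 to 129.1 in the lncRNA-OIS1 libraries and 44.9 in the BRD7 library. PTPRC, which defines leukocytes, was at the floor in all 5 libraries. The other leukocyte markers did not move together: CD14 had 77.6, 75, 54.2 and 25.1 in the hairpins, against 117.7 in BRD7 knockdown, and LAPTM5 had 89.2, 96.9, 62.1 and 20 in the hairpins, against 32.7 in BRD7 knockdown. These are bulk libraries, in which fewer cells of a type and less RNA per cell cannot be told apart.

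BRD7 itself (ENSG00000166164) separated the groups. Its signal was 632.6, 628.7, 695.3 and 652.9 in the libraries of hairpins 32-2, 32-3, 32-8 and 32-9, against 94.6 in the BRD7 library. The other 4 libraries of the series read 654.0 in p53 knockdown, 628.7 and 536.6 in senescent cells and 605.1 in the control, so the BRD7 library was the lowest of all 9 by a wide margin and held 14.5% of the lncRNA-OIS1 mean of 652.4 ± 30.5 (SD, n = 4). The log2 change was 2.78 (SE 0.135), with an adjusted p of 0.0197 in limma over all genes. BRD7 was the only gene called, 1 of 12481 (0.00801%) higher in lncRNA-OIS1 knockdown and 0 (0.0%) lower. At an unadjusted p under 0.05 limma counted 342 genes (2.74%), 200 higher (1.6%) and 142 lower (1.14%), and the smallest adjusted p of any gene but BRD7 was 0.421. The lone BRD7 library has no replicate check. Its spread is assumed to be that of the lncRNA-OIS1 and senescent groups, in which each library carries another hairpin. An exact permutation test of 4 against 1 cannot go below p = 0.2. The BRD7 call itself was lost in each fit that left out 1 lncRNA-OIS1 or senescent library (log2 change 2.75 to 2.80, adjusted p 0.108 to 0.229).

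Every other gene is therefore described by its position. The gap is the log2 distance from the BRD7 library to the nearest of the 4 hairpin libraries, positive where all 4 hairpins stand above BRD7 knockdown and negative where all 4 stand below it. All 4 hairpins were above BRD7 knockdown for 1864 genes (14.9%) and below it for 1841 (14.8%), so BRD7 knockdown lay outside the hairpins' range for 3705 genes (29.7%). With 3 hairpins in place of 4 these shares are higher by construction: above BRD7 knockdown 18.8%, 19.1%, 19.9% and 22.9% without hairpin 32-2, 32-3, 32-8 and 32-9, and below it 19.4%, 19.7%, 20% and 22.3%. Counts without a hairpin are read beside these. The gap reached 2-fold for 20 genes (0.16%): 15 with the hairpins higher (0.12%) and 5 with the hairpins lower (0.0401%). At the edge of the 2-fold rule, BAIAP2 had a gap of 1.01 and ACPP 0.99 on one side, and NMNAT2 had -1.01 and MX2 -0.96 on the other.

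**Figure D1:**
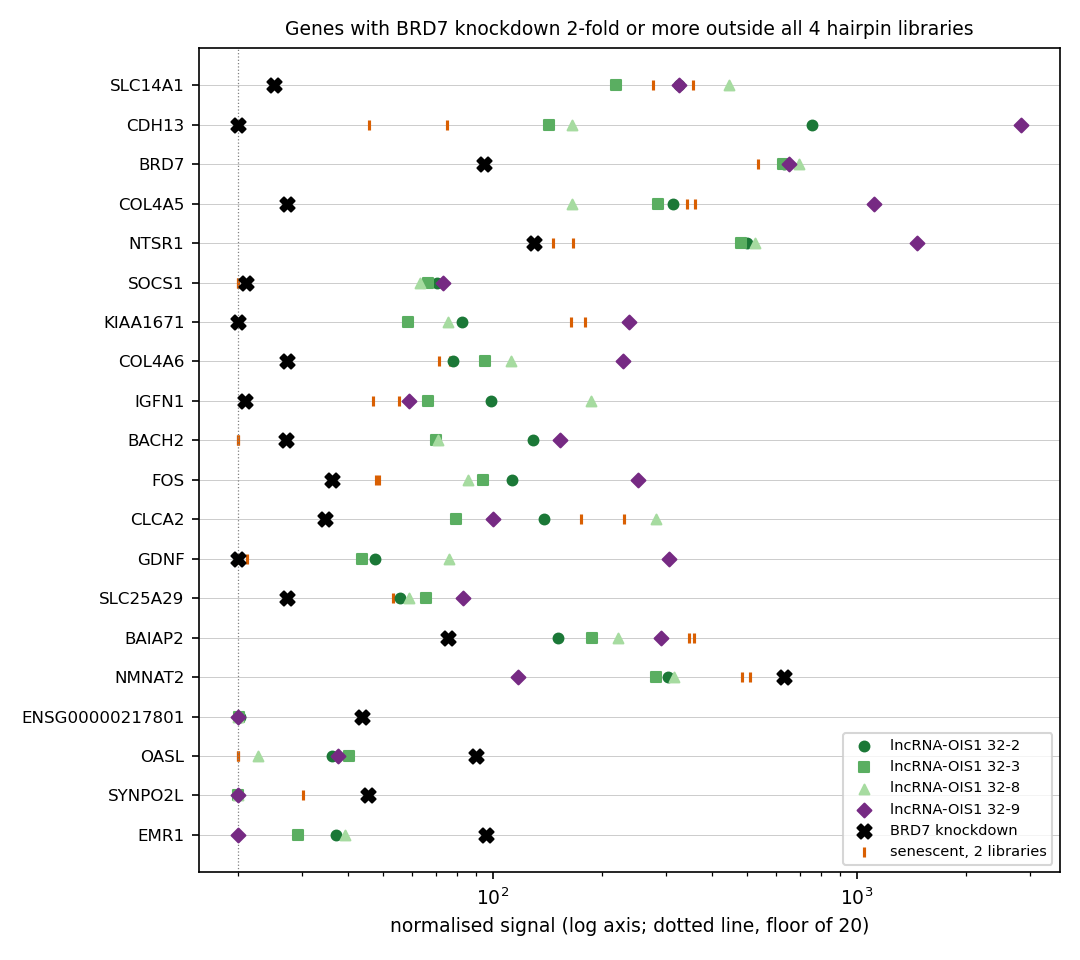
Normalised signal (log axis, floor of 20 as a dotted line) of the 20 genes whose gap reached 2-fold, with 1 point per library for the 4 lncRNA-OIS1 hairpins and BRD7 knockdown, and senescent cells as short bars. BRD7 knockdown lies left of all 4 hairpins for the 15 genes that include SLC14A1 and BRD7 and right of them for the 5 that include EMR1 and NMNAT2, and hairpin 32-9 often lies far from the other 3.

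The hairpins themselves spread widely. Between hairpin libraries, 382 (32-2 and 32-3), 394 (32-3 and 32-8) and 442 genes (32-2 and 32-8) were at least 2-fold apart, but 1829, 1578 and 1927 genes were where hairpin 32-9 was compared with 32-2, 32-3 and 32-8. Against BRD7 knockdown the same count was 449 for hairpin 32-2, 221 for 32-3, 384 for 32-8 and 1708 for 32-9. Hairpins 32-3 and 32-8 were thus each nearer to BRD7 knockdown, by this count, than to any other hairpin. Hairpin 32-3 was also nearer to p53 knockdown (377 genes) than to any other hairpin. By median absolute log2 difference, hairpin 32-3 was nearest to BRD7 knockdown (0.152). Hairpin 32-8 was by that measure nearest to hairpin 32-2 (0.18, against 0.187 to BRD7 knockdown). The 2 senescent libraries were 2-fold apart at 29 genes. Each hairpin sets the hairpins' range for some genes. Without hairpin 32-9, 34 genes had all remaining hairpins 2-fold above BRD7 knockdown and 7 had them 2-fold below. Without hairpin 32-2, 32-3 or 32-8 the counts were 21, 29 and 28 above, and 11, 23 and 17 below. Leaving out hairpin 32-9 thus gave the highest count above and the lowest below.

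**Figure D2:**
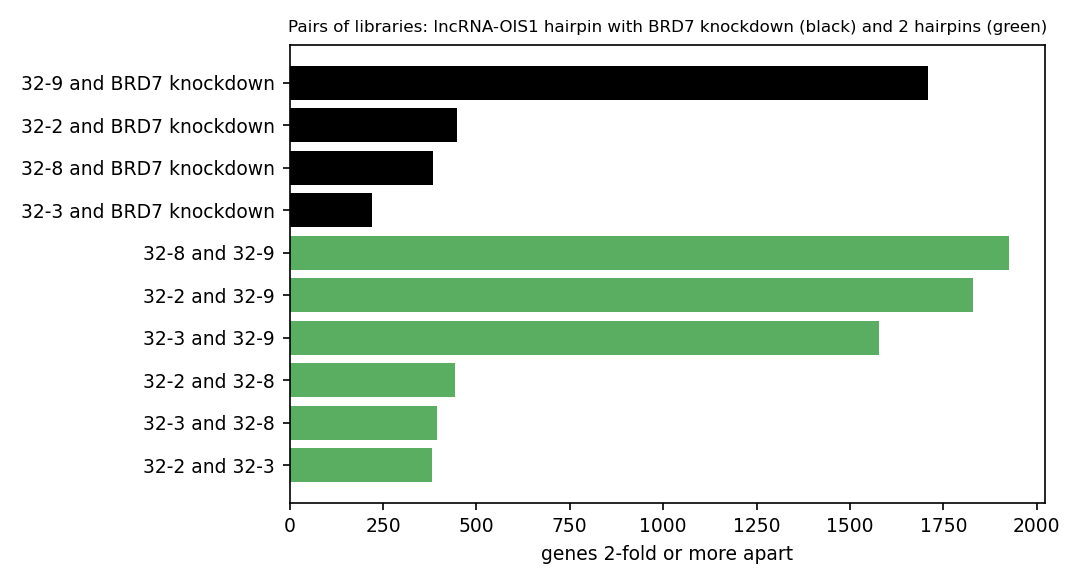
Number of genes at least 2-fold apart for each pair among the 5 libraries of the comparison, out of 12481. Pairs with hairpin 32-9 reach 1578 to 1927 genes within lncRNA-OIS1 knockdown and 1708 against BRD7 knockdown, and the lowest bar is hairpin 32-3 against BRD7 knockdown with 221.

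SLC14A1, a urea transporter, had 324.6, 218.6, 446.4 and 325.2 in the 4 hairpin libraries, against 25.1 in BRD7 knockdown. All 4 hairpins stood around the 355.3 and 276.0 of senescent cells, while BRD7 knockdown sat near the floor, below the 62.0 of p53 knockdown. Its gap was 8.71-fold and its log2 change 3.67 (SE 0.389), which did not pass in limma (adjusted p 0.483). CDH13, which encodes a cadherin anchored to the membrane by a lipid, had 753.6, 142.6, 165.4 and 2824.3 in the hairpin libraries and stood at the floor of 20 in BRD7 knockdown, a gap of at least 7.13-fold. Its hairpins did not overlap BRD7 knockdown but were spread more widely than those of the other 14 genes on this side. NTSR1, a G-protein-coupled receptor for neurotensin, had 499.7, 481.2, 527.1 and 1467.3 in the hairpins, against 130.0 in BRD7 knockdown. Here 3 hairpins agreed closely, hairpin 32-9 was far above them, and the 146.4 and 166.4 of senescent cells were near BRD7 knockdown.

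COL4A5 and COL4A6, the paired genes of the alpha-5 and alpha-6 chains of basement membrane collagen IV, were both among the 15. COL4A5 had 313.0, 285.4, 165.1 and 1118.0 in the hairpin libraries, against 27.3 in BRD7 knockdown, a gap of 6.05-fold with a log2 change of 3.71 (SE 0.961). COL4A6 had 77.9, 95.3, 112.1 and 227.7 in the hairpins, against 27.3 in BRD7 knockdown, a gap of 2.85-fold with a log2 change of 2.10 (SE 0.568). Neither passed in limma (adjusted p 1.0 for both). For both genes all 4 hairpins, both senescent libraries and p53 knockdown stood above BRD7 knockdown, and only the control was lower, at the floor. The genes lie head to head on opposite strands of chromosome X. The 250 bases before each start in RefSeq (GRCh38.p14) are shown because they overlap: chrX:108439588-108439837 for COL4A5 on the plus strand and chrX:108439459-108439708 for COL4A6 on the minus strand, each written 5′ to 3′ on its own strand (of 2 windows listed for COL4A6, the one nearest COL4A5), with the 121 bases that both windows hold in capitals.
COL4A5: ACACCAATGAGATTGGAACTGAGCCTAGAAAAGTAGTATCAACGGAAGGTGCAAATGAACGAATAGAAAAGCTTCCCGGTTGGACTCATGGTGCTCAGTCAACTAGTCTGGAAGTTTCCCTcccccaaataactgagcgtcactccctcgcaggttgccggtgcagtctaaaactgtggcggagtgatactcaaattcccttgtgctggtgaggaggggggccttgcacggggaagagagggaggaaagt
COL4A6: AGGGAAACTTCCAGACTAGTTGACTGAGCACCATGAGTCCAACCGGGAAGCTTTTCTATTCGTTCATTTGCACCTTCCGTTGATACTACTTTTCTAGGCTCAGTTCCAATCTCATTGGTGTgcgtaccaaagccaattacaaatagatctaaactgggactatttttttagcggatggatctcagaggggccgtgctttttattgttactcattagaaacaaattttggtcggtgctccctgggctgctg
The capitals of one are the reverse complement of the capitals of the other, so these 2 of the 15 genes are read outward from 1 stretch of DNA.

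SOCS1, which encodes an inhibitor of JAK-STAT cytokine signalling, had 70.3, 66.6, 63.2 and 73.1 in the hairpin libraries, against 21.0 in BRD7 knockdown. Apart from BRD7 itself, its hairpins were the most alike of the 15 genes, and both senescent libraries stood at the floor. The gap was 3.01-fold and the log2 change 1.70 (SE 0.163), with an adjusted p of 0.421 in limma. FOS, an AP-1 subunit induced early after growth signals, had 112.8, 93.9, 85.6 and 250.8 in the hairpins, against 36.2 in BRD7 knockdown, a gap of 2.36-fold. BACH2, a transcriptional repressor, had 129.3, 69.9, 70.7 and 153.3 in the hairpins, against 27.0 in BRD7 knockdown, a gap of 2.59-fold. For neither did any hairpin come near BRD7 knockdown, and hairpin 32-9 was the highest for both. GDNF, a neurotrophic growth factor, had 47.6, 43.7, 76.0 and 305.6 in the hairpin libraries and was at the floor in BRD7 knockdown.

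The remaining members were the calcium-activated chloride channel regulator CLCA2, the mitochondrial carrier SLC25A29, the actin-regulating adaptor BAIAP2, KIAA1671 and IGFN1. CLCA2 had 138.7, 79.2, 280.6 and 100.1 in the hairpin libraries, against 34.7 in BRD7 knockdown, and stood at 20 in p53 knockdown. BAIAP2 had 151.6, 188.1, 221.0 and 290.7 in the hairpins, against 75.3 in BRD7 knockdown, and both senescent libraries were above every hairpin at 356.6 and 345.4. KIAA1671, SLC25A29 and BAIAP2 were higher in the control than in BRD7 knockdown, at 120.9, 208.7 and 423.0. Across the 15 genes, BRD7 itself included, BRD7 knockdown was at the floor for 3 and under 100 for 14. Both senescent libraries were above it for 12 and p53 knockdown for 13. The control was above BRD7 knockdown for 6 and below it for 7. Hairpin 32-9 was the highest hairpin for 11. Low levels near a floor limit how well any of these folds is known. Just under 2-fold were the IGF-binding protein IGFBP2 (750.7, 650.9, 338.9 and 2239.3 in the hairpins, against 171.3 in BRD7 knockdown), and the activin antagonist follistatin FST (469.7, 446.0, 524.0 and 994.1 in the hairpins, against 229.0 in BRD7 knockdown).

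Of the 5 genes 2-fold on the other side, 4 were near the floor in most libraries. EMR1, SYNPO2L and ENSG00000217801, 3 of the 5, reached 40 in BRD7 knockdown only, so they were compared through the library in which they are high. EMR1, an adhesion G-protein-coupled receptor best known from myeloid cells, had 37.2, 29.2, 39.4 and 20 in the hairpin libraries, against 95.7 in BRD7 knockdown. The myeloid marker CD14 was also highest in BRD7 knockdown among the 5 libraries compared, at 117.7. The other leukocyte markers did not follow it. LAPTM5 was lower in BRD7 knockdown (32.7) than in hairpins 32-2, 32-3 and 32-8, and PTPRC was at the floor in all 5. The part of such cells in these results and in the interferon list was not tested. OASL, an interferon-induced protein of the oligoadenylate synthetase family, had 36.2, 40.2, 22.7 and 37.6 in the hairpins, against 89.8 in BRD7 knockdown. SYNPO2L, an actin-associated protein of muscle, was at the floor in all 4 hairpin libraries and at 45.6 in BRD7 knockdown, and ENSG00000217801, a gene without a symbol in the table, had 20.2, 20.1, 20 and 20 in the hairpins, against 43.9 in BRD7 knockdown. In each of the 5 the p53 knockdown, both senescent libraries and the control were also below BRD7 knockdown. NMNAT2, an enzyme of NAD synthesis, was the only one well above the floor, with 303.7, 280.9, 315.4 and 117.7 in the hairpins, against 633.7 in BRD7 knockdown, a gap of -1.01 and a log2 change of -1.42 (SE 0.564). None passed in limma (adjusted p 0.853 for ENSG00000217801 and 1.0 for the other 4). EGF, the epidermal growth factor, was just short of 2-fold in the same direction with 113.4, 98.7, 112.6 and 31.4 in the hairpins, against 218.7 in BRD7 knockdown.

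The interferon-response list stood lower in lncRNA-OIS1 knockdown than in BRD7 knockdown. Of its 42 members tested, all 4 hairpins were below BRD7 knockdown for 22 (52.4%, beside 14.8% of all genes) and above it for 0, with a median log2 change of -0.41 beside -0.00 over all genes. None was called by limma, and 6 had an unadjusted p under 0.05. The members' median was -0.12, -0.26, -0.40 and -0.99 for hairpins 32-2, 32-3, 32-8 and 32-9, each against BRD7 knockdown, with 25, 31, 35 and 38 members lower. The direction was shared by the hairpins while its size was not. Leaving out 1 hairpin gave 22 to 28 members below BRD7 knockdown, with 1 member above it without hairpin 32-3 and 5 without hairpin 32-9. The 2 senescent libraries were each below BRD7 knockdown at 40 members and p53 knockdown at 41.

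Among the sensors and effectors, IFIT1, which binds foreign RNA that lacks a complete cap, had 323.8, 399.2, 173.9 and 159.1 in the hairpin libraries, against 567.9 in BRD7 knockdown. Its relative IFIT2 had 224.2, 264.6, 196.2 and 158.2 in the hairpins, against 448.4 in BRD7 knockdown (log2 change -1.11, SE 0.292). In both, hairpin 32-9 was lowest, every hairpin stood above senescent cells (102.7 and 116.6 for IFIT1), and the control was highest at 854.2 and 677.3. IFIH1, the cytoplasmic sensor of long double-stranded RNA, had 151.0, 119.9, 119.2 and 87.8 in the hairpins, against 213.0 in BRD7 knockdown, and DDX58, which encodes the sensor RIG-I, had 612.4, 693.0, 497.6 and 413.3 in the hairpins, against 843.8 in BRD7 knockdown. RSAD2, the antiviral enzyme viperin, had 31.7, 41.3, 20 and 20.9 in the hairpins, against 76.0 in BRD7 knockdown. MX2, a dynamin-like antiviral GTPase, had 27.0, 20, 20 and 27.4 in the hairpins, against 53.3 in BRD7 knockdown. These 2 lay at or near the floor in most libraries, so their folds are poorly known.

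The signalling members STAT2, IRF1 and IRF7 did not share that separation. STAT2, a transcription factor of the type I interferon pathway, had 1210.8, 966.4, 1177.1 and 1214.9 in the hairpins, against 1172.9 in BRD7 knockdown. For STAT2, and for the regulators IRF1 and IRF7, BRD7 knockdown lay within the hairpins' range. IRF9, the DNA-binding partner of STAT2, had 33.1, 26.7, 20 and 20 in the hairpins, against 44.7 in BRD7 knockdown, and was tested only because its level in BRD7 knockdown passed 40.

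Promoter windows of 4 genes are shown. For IFIT1, IFIH1 and RSAD2 all hairpins lay below BRD7 knockdown, and for SOCS1, the inhibitor of JAK-STAT signalling, all lay above it. In senescent cells SOCS1 was at the floor of 20 in both libraries, and 40 of the 42 list members were below BRD7 knockdown in each. A link between SOCS1 and this list was not tested. The 250 bases before the start of each gene (RefSeq, GRCh38.p14) are written 5′ to 3′ on the gene's strand. Capitals mark each match to GAAANNGAAA on either strand, the core of the interferon-stimulated response element. The windows are chr10:89392373-89392622 on the plus strand for IFIT1, chr2:162318685-162318934 on the minus strand for IFIH1, chr2:6877527-6877776 on the plus strand for RSAD2 (of 2 listed windows, the one with a match) and chr16:11256205-11256454 on the minus strand for SOCS1.
IFIT1: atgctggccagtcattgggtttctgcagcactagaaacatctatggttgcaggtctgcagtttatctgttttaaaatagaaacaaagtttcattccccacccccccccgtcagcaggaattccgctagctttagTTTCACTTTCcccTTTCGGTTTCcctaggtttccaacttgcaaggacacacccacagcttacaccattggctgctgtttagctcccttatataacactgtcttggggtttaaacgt
IFIH1: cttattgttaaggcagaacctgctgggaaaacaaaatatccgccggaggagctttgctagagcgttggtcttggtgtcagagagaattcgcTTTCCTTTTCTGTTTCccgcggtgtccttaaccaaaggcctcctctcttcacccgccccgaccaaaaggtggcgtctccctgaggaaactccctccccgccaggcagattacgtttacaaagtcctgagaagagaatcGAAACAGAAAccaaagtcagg
RSAD2: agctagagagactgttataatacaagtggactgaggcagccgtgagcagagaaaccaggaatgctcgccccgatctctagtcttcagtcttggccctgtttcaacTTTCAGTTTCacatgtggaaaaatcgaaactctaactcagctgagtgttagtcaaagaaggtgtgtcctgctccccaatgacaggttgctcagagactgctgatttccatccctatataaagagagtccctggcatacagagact
SOCS1: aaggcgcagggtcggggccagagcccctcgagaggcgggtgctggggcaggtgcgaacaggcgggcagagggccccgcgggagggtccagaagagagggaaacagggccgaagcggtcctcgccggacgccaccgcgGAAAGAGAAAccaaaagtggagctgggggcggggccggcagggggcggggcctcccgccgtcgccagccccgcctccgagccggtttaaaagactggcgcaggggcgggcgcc
IFIT1 held 2 matches, IFIH1 3 (of which 2 overlap), RSAD2 1 and SOCS1 1. Of the 22 members with all hairpins below BRD7 knockdown, 17 had a window and 14 of those held the motif (82.4%). Of the 20 other members tested, 15 had a window and 8 held it (53.3%). Over all genes with a window the share was 3.71% (1014 of 27305). The list was made of interferon-response genes, so a share above that of all genes comes with its choice. The difference between its parts rests on few genes and was not tested. A match is a description of these letters and not evidence of binding.

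RAS-MAPK output genes, which are induced by or feed back on the kinase cascade below RAS, stood higher in lncRNA-OIS1 knockdown than in BRD7 knockdown. Of 34 members tested, all 4 hairpins were above BRD7 knockdown for 14 (41.2%, beside 14.9% of all genes) and below it for 0, and the median log2 change was 0.26. None was called by limma, and 2 had an unadjusted p under 0.05. The median was 0.53, 0.16, 0.22 and 0.40 for hairpins 32-2, 32-3, 32-8 and 32-9, with 26, 27, 25 and 25 members higher than in BRD7 knockdown. Leaving out 1 hairpin gave 14 to 18 members above BRD7 knockdown, with 1 below it without hairpin 32-3 and 2 without hairpin 32-9. The lean was shared by p53 knockdown, which was above BRD7 knockdown at 24 members and below it at 9 (median 0.29). The 2 senescent libraries had medians of -0.0 and 0.0, with 16 and 17 members above BRD7 knockdown and 17 and 15 below it.

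Of 11 sprouty, SPRED and dual-specificity phosphatase genes in the list, which are feedback inhibitors of the cascade, all hairpins were above BRD7 knockdown for SPRY2, SPRY4, SPRED1, DUSP5 and DUSP7, and BRD7 knockdown was within their range for SPRY1, SPRED2, SPRED3, DUSP1, DUSP4 and DUSP6. SPRY2, an inhibitor of receptor tyrosine kinase signalling, had 7118.0, 5140.2, 4856.8 and 5242.4 in the hairpin libraries, against 4096.8 in BRD7 knockdown. SPRY4 had 7162.9, 6785.0, 7018.2 and 7733.7 in the hairpins, against 6019.1 in BRD7 knockdown, and the related SPRED1 had 5091.6, 5711.0, 8131.7 and 7786.7 in the hairpins, against 4287.4 in BRD7 knockdown. BRD7 knockdown was below the lowest hairpin in each, by less than the hairpins differed among themselves. DUSP7, a phosphatase of ERK, had 1667.2, 1187.0, 1388.2 and 1350.4 in the hairpins, against 959.8 in BRD7 knockdown, while its relative DUSP6 had 8402.9, 5182.2, 7949.9 and 9870.8 in the hairpins, against 5840.3 in BRD7 knockdown, with BRD7 knockdown inside the range. Of the transcription factors, ETV1 had 1766.2, 1214.6, 1379.7 and 1995.7 in the hairpins, against 1064.0 in BRD7 knockdown, and EGR1 had 1585.6, 769.0, 581.8 and 4297.6 in the hairpins, against 523.2 in BRD7 knockdown. The ephrin receptor EPHA4 had 261.8, 221.7, 217.3 and 1557.9 in the hairpins, against 127.0 in BRD7 knockdown, so hairpin 32-9 alone was several times the other 3. HRAS itself had 11855.2, 19543.6, 16650.8 and 15473.7 in the hairpins, against 14498.6 in BRD7 knockdown, with BRD7 knockdown inside the range.

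**Figure D3:**
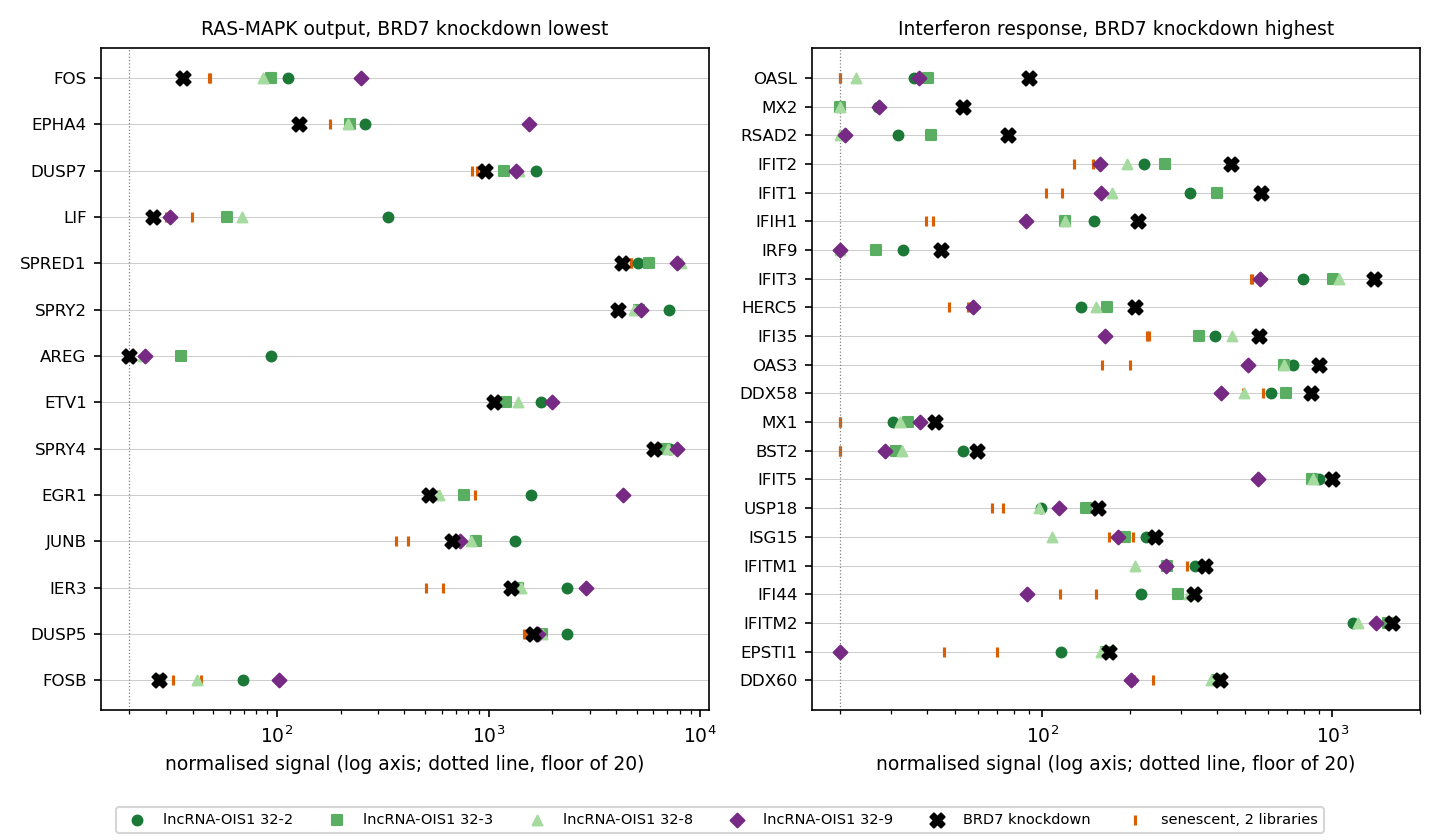
Normalised signal (log axis, floor of 20 as a dotted line) of the RAS-MAPK output members for which all 4 lncRNA-OIS1 hairpins stood above BRD7 knockdown (left, 14 of 34) and of the interferon-response members for which all 4 stood below it (right, 22 of 42), with 1 point per library and senescent cells as short bars. FOS and OASL have the widest gaps of their panels, and toward the lower rows the gaps narrow until the nearest hairpin touches BRD7 knockdown.

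Proliferation genes showed an order among hairpins more than a difference between knockdowns. For the mitosis list, 45 of 45 members were lower in hairpin 32-2 than in BRD7 knockdown (median log2 difference -0.80) and 45 of 45 in hairpin 32-8 (-0.52). In hairpin 32-9 31 of 45 were lower (-0.19), while in hairpin 32-3 26 of 45 were higher (0.03). BRD7 knockdown therefore stood above every hairpin for 18 of 45 (40%, beside 14.8% of all genes) and below every hairpin for 0. These 18 gaps were small, with a median of 0.06 on the log2 scale, beside 0.1 over all genes on that side. The median log2 change was -0.38, and limma called none. Without hairpin 32-3 the count was 31 of 45, beside 19.7% of all genes then. NEK2, a centrosome kinase and the member with the widest gap, had 221.6, 455.1, 272.3 and 338.2 in the hairpin libraries, against 537.2 in BRD7 knockdown. The proliferation marker MKI67 had 2574.2, 5049.7, 2960.2 and 5657.9 in the hairpins, against 5027.6 in BRD7 knockdown. For MKI67 hairpins 32-3 and 32-9 were above BRD7 knockdown and the other 2 were near one another below it.

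DNA replication and E2F target genes repeated the low position of hairpins 32-2 and 32-8, but hairpin 32-9, not 32-3, had the highest median. All 45 members were lower in hairpin 32-2 than in BRD7 knockdown (median -0.52) and all 45 in hairpin 32-8 (-0.29), while 28 were higher in hairpin 32-3 (0.05) and 29 in hairpin 32-9 (0.17). BRD7 knockdown stood above every hairpin for 7 of 45 (15.6%), near the 14.8% of all genes, with 16 without hairpin 32-3 (beside 19.7% of all genes then) and 17 without hairpin 32-9 (beside 22.3%). MCM2, a subunit of the replicative helicase, had 523.7, 790.7, 680.8 and 1198.7 in the hairpin libraries, against 824.1 in BRD7 knockdown. Against BRD7 knockdown, p53 knockdown was higher for 45 of 45 mitosis members (median 0.57), and the senescent libraries were lower for 45 of 45 (-1.51 and -1.91). All 4 hairpins and BRD7 knockdown thus lay between p53 knockdown and senescent cells by median.

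**Figure D4:**
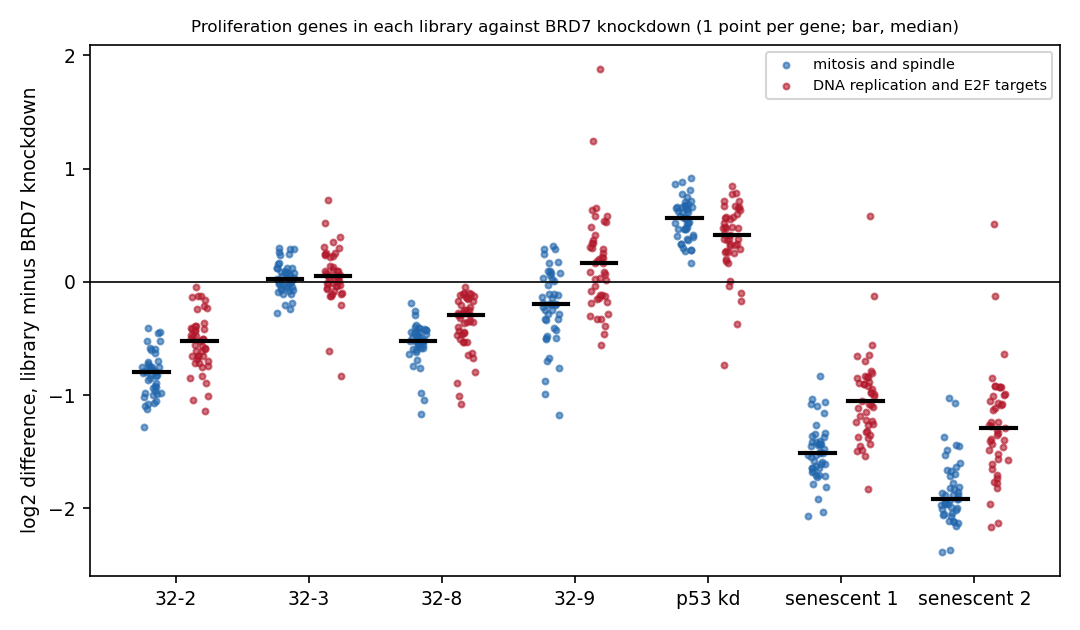
Log2 difference from BRD7 knockdown (vertical axis, 0 is BRD7 knockdown) for each member of the mitosis list and of the DNA replication and E2F list, by library, with the median as a bar. Hairpins 32-2 and 32-8 lie wholly below 0 in both lists, hairpins 32-3 and 32-9 have medians between -0.19 and 0.17, p53 knockdown has medians of 0.57 and 0.41, and all senescent medians are at or below -1.05. Single replication genes cross 0 in p53 knockdown (5 of 45) and in senescent cells (1 of 45).

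Secreted inflammatory factors differed between hairpins, with BRD7 knockdown mostly in between. Of 20 tested, all hairpins were above BRD7 knockdown for 2 (10.0%, beside 14.9% of all genes) and below it for 0 (beside 14.8%), and the median log2 change was -0.06. By hairpin the median was 0.79, -0.18, 0.62 and -1.27 for 32-2, 32-3, 32-8 and 32-9, with 18, 7, 15 and 4 members higher than in BRD7 knockdown. Without hairpin 32-9 the list median was 0.47 and 5 members stood above BRD7 knockdown, and without hairpin 32-3 there were 4. Members below it numbered 2 without hairpin 32-2 and 1 without 32-3 or 32-8. The neutrophil chemoattractant IL8 had 17615.8, 4733.9, 12902.8 and 212.0 in the hairpin libraries, against 9812.7 in BRD7 knockdown. The cytokine IL1B had 12902.8, 4790.4, 18474.2 and 60.1 in the hairpins, against 5606.9 in BRD7 knockdown. In both, hairpins 32-2 and 32-8 were above BRD7 knockdown, hairpin 32-3 below it, and hairpin 32-9 lower still, so no direction holds for the knockdown. The 2 members outside the range were the prostaglandin-forming enzyme PTGS2 and the cytokine LIF. PTGS2 had 13977.8, 5963.2, 7855.1 and 9940.7 in the hairpins, against 3660.1 in BRD7 knockdown, a gap of 0.70 on the log2 scale and a log2 change of 1.30 (SE 0.433), and it was 8201.7 in p53 knockdown and 1938.7 and 1848.6 in senescent cells.

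Proteases, inhibitors and growth factors had a median log2 change of 0.21 over 41 members, with all hairpins above BRD7 knockdown for 9 (22%, beside 14.9%) and below it for 3 (7.32%, beside 14.8%). Without hairpin 32-3 or 32-9 there were 14 above, and without hairpin 32-8 there were 5 below. The collagenase MMP1 had 63004.2, 40950.0, 110360.7 and 211606.6 in the hairpin libraries, against 30796.4 in BRD7 knockdown. The hypocalcaemic hormone gene STC1 had 110360.7, 59295.6, 70122.0 and 110360.7 in the hairpins, against 48419.6 in BRD7 knockdown, and the growth factor gene HGF had 519.0, 601.3, 1413.9 and 2620.9 in the hairpins, against 390.1 in BRD7 knockdown. None overlapped BRD7 knockdown, and hairpin 32-3 lay nearest to it for MMP1 and STC1. Equal values such as 110360.7 arise because all libraries share 1 set of values.

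The contractile and TGF-beta list leaned the other way, and the matrix list did so in hairpins 32-3 and 32-9 only. By hairpin the contractile median was -0.06, -0.3, -0.15 and -0.81 for 32-2, 32-3, 32-8 and 32-9. Of 14 contractile members tested, all hairpins were below BRD7 knockdown for 6 (42.9%, beside 14.8%) and above it for 0, with a median of -0.36. Without hairpin 32-9 the median was -0.08 and 7 members were below. The smooth muscle protein transgelin, TAGLN, had 1090.1, 388.9, 449.1 and 732.3 in the hairpin libraries, against 1388.2 in BRD7 knockdown. ACTA2, smooth muscle actin, had 225.8, 205.8, 254.0 and 196.9 in the hairpins, against 308.1 in BRD7 knockdown, and the tropomyosin TPM1 had 4167.0, 3402.9, 4637.0 and 631.7 in the hairpins, against 5775.4 in BRD7 knockdown. Among the 5 libraries compared BRD7 knockdown was highest for all 3, although the control was above it for each and both senescent libraries were for TAGLN, and hairpin 32-9 was far below the other hairpins for TPM1 only. Of 37 matrix members, all hairpins were below BRD7 knockdown for 8 (21.6%) and above it for 1 (2.70%), with a median of -0.24. By hairpin the matrix median was 0.0, -0.26, 0.0 and -0.6 for 32-2, 32-3, 32-8 and 32-9. Members above and below BRD7 knockdown numbered 17 and 17 in hairpin 32-2 and 18 and 17 in hairpin 32-8. The count below was 14 without hairpin 32-2, and the count above was 2, 3, 2 and 8 without 32-2, 32-3, 32-8 and 32-9. ADAMTS2, which trims the amino end of procollagen, had 305.0, 399.6, 322.2 and 177.6 in the hairpins, against 566.4 in BRD7 knockdown, and P4HA2, a collagen prolyl hydroxylase subunit, had 1419.7, 1331.8, 1298.8 and 1034.1 in the hairpins, against 2006.6 in BRD7 knockdown. No member of either list was called by limma.

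**Figure D5:**
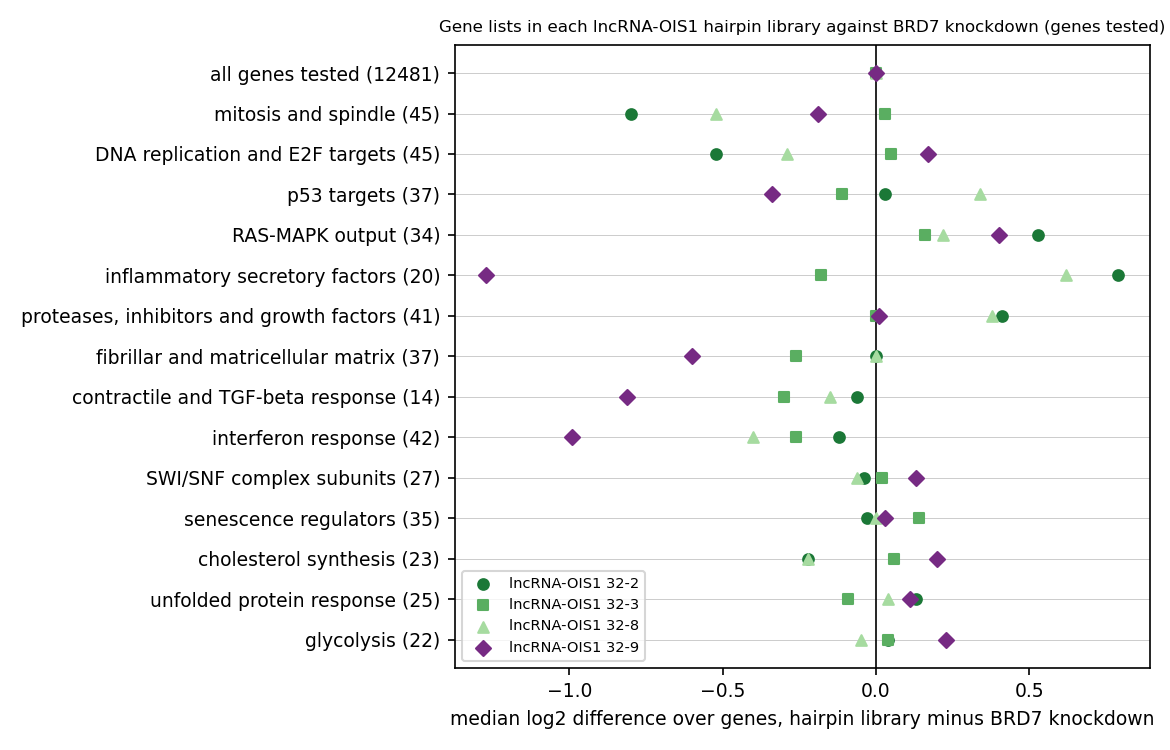
Median log2 difference (lncRNA-OIS1 hairpin minus BRD7 knockdown) of each gene list, with 1 point per hairpin; 0 is BRD7 knockdown. The interferon list lies below 0 for all 4 hairpins and the RAS-MAPK list above 0 for all 4, while the inflammatory list spans -1.27 (hairpin 32-9) to 0.79 (hairpin 32-2).

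Subunits of the SWI/SNF complexes, to which BRD7 belongs, were mostly within the hairpins' range. Of 27 tested, 3 stood above BRD7 knockdown in all hairpins (11.1%, BRD7 among them, beside 14.9% of all genes) and 5 below it (18.5%, beside 14.8%), with a median of 0.04, and without hairpin 32-8 there were 6 above. ARID2, the DNA-binding subunit particular to PBAF, had 493.4, 406.4, 404.1 and 425.0 in the hairpin libraries, against 632.6 in BRD7 knockdown, and the 535.1 of the control was the nearest other library. Its log2 change was -0.55 (SE 0.151), with an unadjusted p of 0.0117 and an adjusted p of 1.0 in limma. PBRM1, the polybromo subunit of PBAF, had 1357.9, 1578.3, 1477.9 and 1774.0 in the hairpins, against 1485.7 in BRD7 knockdown, inside the range.

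Genes of the senescence arrest itself did not separate the knockdowns. DPP4 had 1344.6, 1248.8, 2390.0 and 922.9 in the hairpin libraries, against 1053.6 in BRD7 knockdown, so 3 hairpins were above and hairpin 32-9 below (log2 change 0.40, SE 0.474). CDKN1A, the p53-induced inhibitor of cyclin-dependent kinases, had 15473.7, 11146.3, 12588.4 and 6989.6 in the hairpins, against 9405.6 in BRD7 knockdown. BRD7 knockdown lay inside the range for both genes. Of 37 p53 targets, all hairpins were above BRD7 knockdown for 3 and below it for 3 (8.11% each, under the 14.9% and 14.8% of all genes), with a median of -0.02. Without hairpin 32-3 or 32-9 there were 7 above, and without hairpin 32-8 there were 10 below. CDKN2A was at the floor in hairpins 32-2, 32-3 and 32-8 and in BRD7 knockdown, and at 362.3 in hairpin 32-9. The 35 senescence regulators counted 4 above (11.4%) and 2 below (5.71%), with a median of -0.02; without hairpin 32-9 there were 10 above (beside 22.9% of all genes then), and without hairpin 32-3 or 32-8 there were 5 and 4 below (beside 19.7% and 20%).

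Metabolic and stress lists had medians near that of all genes, and their counts are read beside 14.9% of all genes with the hairpins above BRD7 knockdown and 14.8% with them below. The 23 cholesterol synthesis genes had a median of -0.07 with 1 above BRD7 knockdown in all hairpins (4.35%) and 3 below (13%), the 25 unfolded protein response genes 0.06 with 4 above (16.0%) and 2 below (8.0%), and the 22 glycolysis genes 0.06 with 5 above (22.7%) and 3 below (13.6%). These counts were small, and leaving out 1 hairpin moved some of them: cholesterol genes numbered 2 above without hairpin 32-2 or 32-3, 3 above without 32-8 and 8 below without 32-3 or 32-9. Unfolded protein response genes numbered 9 above without 32-3 and 5 below without 32-8. For glycolysis, 9 were above without hairpin 32-8. The glucose transporter SLC2A1 had 2355.1, 2379.1, 2984.7 and 1797.3 in the hairpin libraries, against 3474.7 in BRD7 knockdown.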

How the data were processed

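Per the labels, poly(A) RNA of BJ cells went into TruSeq RNA libraries. The authors deposited 1 table with a normalised signal per gene and library. Quantile normalisation and the floor of 20 are known from the table's name and values: every column totals 14916466.5, and 1375 genes sit at 20 in each. Such scaling removes differences in total RNA and hides depth, so counting error is unknown. The submitters' processing notes name TopHat2, HTSeq and hg19; no source used here gives versions, annotation or strand setting. The table gave no symbol for 1030 genes and a date in place of 21 symbols, and a table of gene names filled 849. The RNA lncRNA-OIS1 itself was not analysed here.

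Groups came from the labels. limma 3.58.1 in R 4.3.3 was fitted with a variance trend to log2 of the deposited signal, with no pseudocount, on all 9 libraries in 5 groups with 4 residual degrees of freedom. Tests were two-sided, with Benjamini-Hochberg adjustment over the 12481 genes whose highest value reached 40. Within the lncRNA-OIS1 and senescent groups each library carried another hairpin. The spread behind each p-value therefore includes differences between hairpins. No hairpin was measured again, so the spread between cultures of 1 hairpin is unknown. Means are of linear values and log2 changes of log2 values. The script was tested on simulated data of this design, with 200 of the more abundant genes changed in the lncRNA-OIS1 libraries. limma recovered 14% of them at 2-fold, 85% at 4-fold and 93% at 8-fold. The simulated noise was drawn alike for all libraries, with no outlying hairpin, so these shares need not hold for the measured values. A gene not called may still differ 2-fold or more. SLC14A1 (log2 change 3.67), COL4A5 (3.71) and CDH13 (4.56) were not called. Alternatives were other pseudocounts and filters, median-of-ratios scaling, 5 libraries only, no variance trend, and each replicate left out. Named genes were the 10 widest gaps in each direction, up to 2 members per list and direction, and a fixed set; other list members named were chosen after their values were seen. The members and lists were chosen with earlier results of these data known. Promoter sequences came from RefSeq, GRCh38.p14, a build other than the submitters' hg19.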

Additional observations from a re-analysis of the deposited data

Results flagged for a closer look

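Among 81 named genes, 12 (14.8%) had 1 lncRNA-OIS1 hairpin library far from the other 3. Its gap to the nearest of them, as a share of the range of all 4, passed the 95% limit of Dixon's test. That limit flags about 1 in 20 groups by chance when groups are independent and not picked by their values. These genes share the same 4 libraries and many were named for their position, so the 14.8% cannot be set against that rate. Hairpin 32-9 was the outlying library in 9 of the 12. For CDKN2A the other 3 hairpins sit at the floor, which fixes its share, so that flag is no measure of spread.

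Hairpin 32-9 was high for NTSR1 (share 0.918; 1467.3, against 481.2 to 527.1 in the other 3), EPHA4 (0.905; 1557.9, against 217.3 to 261.8) and CDKN2A (1.0; 362.3, against 20 in each). It was low for the actin-binding tropomyosin TPM1 (0.845; 631.7, against 3402.9 to 4637.0), EGF (0.892; 31.4), NMNAT2 (0.882; 117.7), NDRG4 (0.868; 93.1), the chaperone CALR (0.881; 18330.7) and S100A4 (0.836; 6829.0). For each of these 6 BRD7 knockdown stood above every hairpin and hairpin 32-9 was the lowest. The other 3 hairpins therefore lay closer to BRD7 knockdown by construction. Hairpin 32-2 was high for the lysosomal galactosidase GLB1 (0.902; 1094.2, against 1022.8 to 1029.6, with 906.2 in BRD7 knockdown) and low for HMGCS1 (0.837; 1617.6). Hairpin 32-8 was low for the keratin KRT8 (0.834; 175.6).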

How the results depend on the processing

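No called direction was reversed by any alternative run. No paired analysis was possible because the BRD7 group has 1 library, so the groups share fewer than 2 replicate numbers. limma called 1 gene higher and 0 lower. Without a filter it called 2 higher and 21 lower, of which 19 of 23 have no value of 40 in any library and the other 4 are BRD7, SOCS1 (adjusted p 0.0116), ENSG00000217801 (adjusted p 0.000907) and JAKMIP3. With only the 5 libraries compared, limma called 0 higher, and BRD7 kept a log2 change of 2.78 at an adjusted p of 0.0685. Leaving out 1 lncRNA-OIS1 or senescent library gave 0 higher, and a log2 change of BRD7 of 2.75 to 2.80 at an adjusted p of 0.108 to 0.229.

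The 15 genes with hairpins 2-fold higher became 5 with a pseudocount of 50 and 21 to 34 with 1 hairpin left out. The 5 with hairpins 2-fold lower became 1 with a pseudocount of 10, 0 with 50, 1 with a mean of at least 80, and 7 to 23 with 1 hairpin left out. A pseudocount shrinks folds of low genes by construction, and a range over 3 hairpins is narrower than over 4. Without 1 hairpin, genes outside the range numbered 2343 to 2810 with BRD7 knockdown lowest and 2411 to 2736 with it highest. Median-of-ratios scaling gave 16 and 4 genes at 2-fold and 1959 and 1782 outside the range. Of 1021 recomputed values of named genes, 1013 were the same, 6 moved and 2 became significant. Log2 changes crossed 0 for PBRM1 (-0.02), IL8 (0.06) and IL1B (0.90) without hairpin 32-9 and for LMNB1 (0.18) and IL1A (-0.28) without hairpin 32-8. The median of the inflammatory list crossed 0 with a pseudocount of 50 (0.04), with no filter (0.04) and without hairpin 32-9 (0.47). The depth behind a value is unknown, and values near the floor limit any fold.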

Other observations

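Some genes were hidden from the 2-fold rule by hairpin 32-9, and these were chosen after their values were seen. The tryptophan-catabolic enzyme KYNU had 1160.4, 416.3, 662.4 and 73.4 in the libraries of hairpins 32-2, 32-3, 32-8 and 32-9, against 182.6 in BRD7 knockdown. The matricellular gene NOV had 651.6, 668.8, 634.0 and 251.3 in the hairpins, against 306.4 in BRD7 knockdown. In both, 3 hairpins stood at least 2-fold above BRD7 knockdown and hairpin 32-9 stood below it. Senescent cells were on the side of the 3 hairpins, at 612.6 and 755.0 for KYNU and 980.8 and 757.0 for NOV. The muscarinic receptor gene CHRM2 had 120.2, 88.9, 161.1 and 20 in the hairpins, against 39.0 in BRD7 knockdown, and stood at 5921.4 in the control.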
